A study of Mus musculus with 16 samples.

Results

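Fibroblast growth factor (FGF) signalling was followed through 10 genes in heads of mouse embryos at 3 stages of gestation. The genes were chosen by symbol and by role. They are the receptors Fgfr1, Fgfr2 and Fgfr3, the secreted ligands Fgf15 and Fgf17, the intracellular family member Fgf13, and the feedback inhibitors Spry1, Spry2, Spry4 and Dusp6. All 10 were measured, by 21 of the 45037 probe sets that are no controls, and each gene was represented by its brightest probe set among 18193 genes. A probe set is a group of short probes whose signals are summarised as 1 value for a transcript.

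FGFs are secreted proteins that, with heparan sulfate, bind tyrosine kinase receptors and activate the Ras and ERK kinase cascade. The cascade switches on its own inhibitors, so Sprouty and Dusp6 transcripts are widely used as readouts of the pathway. In the embryonic head, FGFs from the midbrain-hindbrain organizer and the anterior neural ridge pattern the brain, and FGFs in the face and skull guide outgrowth and bone formation.

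Total RNA of embryo heads was hybridised to 1-colour short oligonucleotide arrays, of which 6 held E9.5, 4 held E11.5 and 6 held E13.5 RNA, and the submitters call the arrays of a stage biological replicates. No strain, genotype or treatment is given in the sources used here, and neither is the extent of tissue around the brain. For both earlier stages the RNA was labelled by in vitro transcription with the array maker's kit, while E13.5 RNA went through the MessageAmp II amplification kit. In any comparison with E13.5, the kit therefore cannot be told apart from the stage. Values are linear intensities on a scale shared by all arrays, and log2 differences are later minus earlier stage.

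Array quartiles were equal to within 1 unit, with a lower quartile of 12 and a median of 32 on every array but for an upper quartile of 140 in place of 141 on 1 array. The poly-A spike-ins added to the RNA lay at a mean log2 intensity of 7.34 to 7.90 at E9.5, 5.21 to 5.50 at E11.5 and 4.98 to 5.22 at E13.5. The hybridisation controls lay at 10.53 to 11.83 at E9.5, 11.53 to 12.07 at E11.5 and 10.30 to 10.52 at E13.5. What part the differences in these controls have in any stage difference was not tested. All 8 neuronal and all 9 neural progenitor markers were above the lower quartile on at least 1 array. So was each measured marker of cartilage, connective tissue, muscle, surface ectoderm, vessels, blood, macrophages, lens and pigment. Of the E9.5 arrays, 13 and 15 had scores of 26.0 and 22.5 on the third principal component, against -16.3 to 6.72 for all others, and results that rest on them are also given without them.

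The clearest changes were in the ligands. Fgf17, an organizer ligand, was lower at E11.5 than at E9.5 and lower again at E13.5. Fgf15, a ligand of the diencephalon and midbrain neuroepithelium, was lower at E11.5 and at E13.5 than at E9.5. Fgfr3 and Dusp6 were highest at E11.5, as was Spry2 on its brightest probe set, while Spry1 was lower at E13.5 than at both earlier stages. Fgf13, a cytoplasmic FGF homologue of neurons, was higher at E11.5 and at E13.5 than at E9.5 on its brightest probe set.

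In E11.5 versus E9.5, 6 of 10 genes were called higher and 2 lower (limma, adjusted p under 0.05), beside 31% and 26.9% of all 18193 genes (57.8% in either direction). In E13.5 versus E11.5, 3 were called higher and 6 lower, beside 27.9% and 27% (54.9% in either direction). In E13.5 versus E9.5, 4 were called higher and 5 lower, beside 32.7% and 29.1% (61.8% in either direction). Without the E9.5 samples 13 and 15, 5 were called higher in E11.5 versus E9.5 and 4 lower in E13.5 versus E9.5, and when arrays sharing an E13.5 title prefix (B62 or B63) were fitted as a random block (estimated correlation 0.601), 0 were called higher and 5 lower in E13.5 versus E11.5, and 3 higher and 4 lower in E13.5 versus E9.5. The moderated F test over the 3 stages called all 10, where 75.8% of all genes were called. Most genes on the array changed with stage, so being called is in itself no mark of these 10 genes. A called difference of at least 2-fold was found for 1, 1 and 2 of the 10 genes in these comparisons, beside 10.9%, 9.59% and 17% of all genes, shares near those of the 10. The median log2 differences of the 10 genes were 0.33, -0.31 and -0.093, against 0.019, 7.7e-05 and 0.0068 over all genes. The arrays of the compared stages did not overlap for 4 of the 10 genes in E11.5 versus E9.5 (37.7% of all genes), 7 in E13.5 versus E11.5 (43%) and 5 in E13.5 versus E9.5 (44.8%). The E11.5 arrays all lay above the E9.5 arrays for 3 of the 10 genes (19.9%) and below for 1 (17.8%). The E13.5 arrays all lay above the E11.5 arrays for 1 (22.3%) and below for 6 (20.7%), and above the E9.5 arrays for 1 (23.9%) and below for 4 (20.9%).

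**Figure D1:**
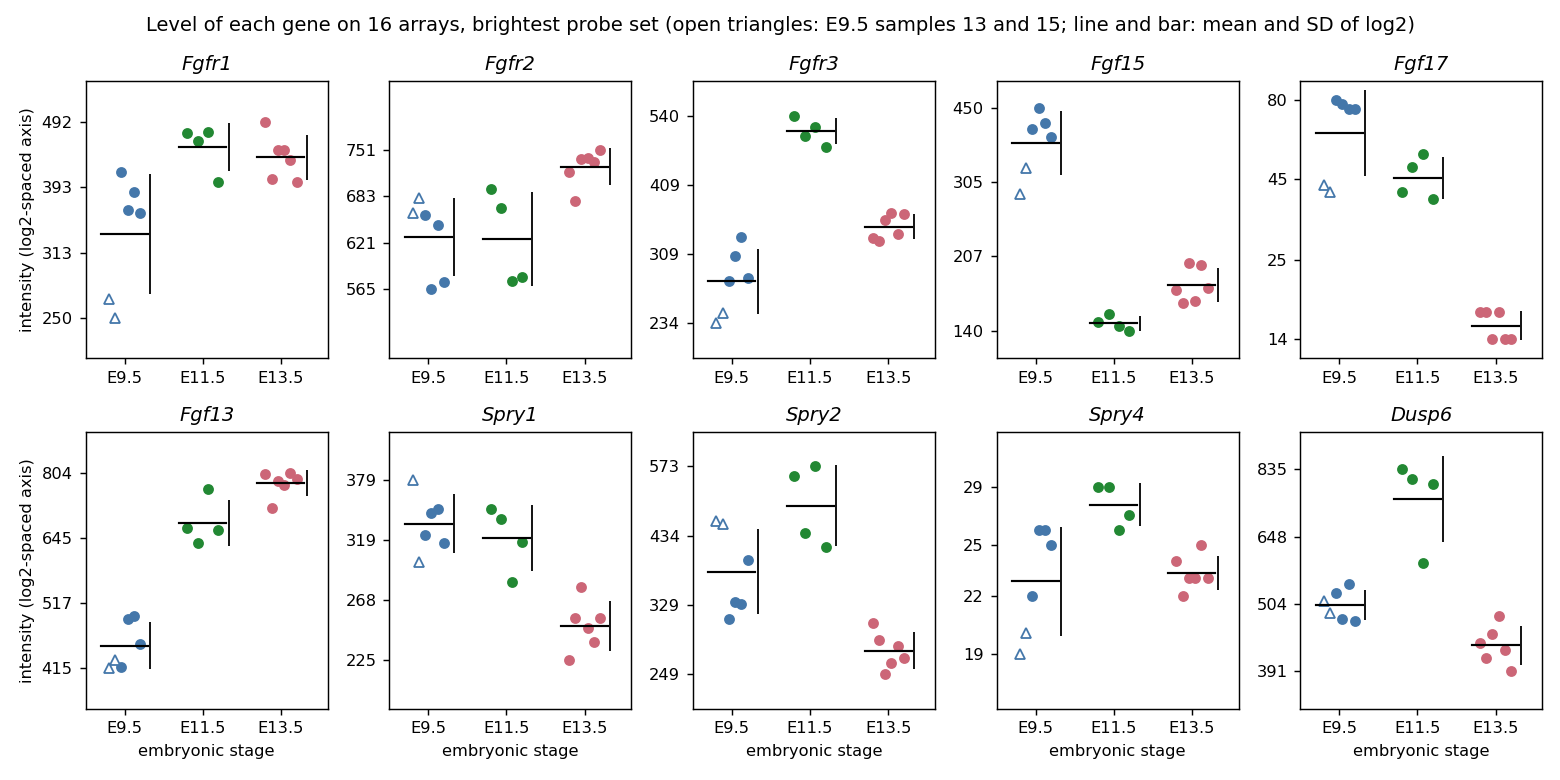
Intensity (log2-spaced axis, a different range in each panel) of the brightest probe set of each gene on 6 arrays of E9.5, 4 of E11.5 and 6 of E13.5. Each point is 1 array, horizontal lines and bars are means and SDs on the log2 scale, and open triangles are the E9.5 samples 13 and 15. Fgfr3 and Dusp6 lie highest at E11.5 with no overlap with the other stages, and Fgf17 lies between 14 and 17 at E13.5.

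Among the ligands, Fgf17 had intensities of 41 to 80 at E9.5 (median 75), of 39, 41, 49 and 54 at E11.5, and of 14 to 17 at E13.5 (median 15.5). The E13.5 arrays lay under all others, whereas E11.5 overlapped E9.5 because the E9.5 samples 13 and 15 had 43 and 41. The other 4 E9.5 samples had 75 to 80. Fgf17 averaged a log2 intensity of 3.95 ± 0.15 at E13.5 and 5.97 ± 0.45 at E9.5 (SD, n = 6 each), a fall of 4.08-fold (log2 difference -2.03 ± 0.16 SE, limma adjusted p = 4.1e-10). At 14 to 17, Fgf17 at E13.5 was close to the arrays' lower quartile of 12.

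In E13.5 versus E11.5, Fgf17 had a log2 difference of -1.56 ± 0.18 SE (2.94-fold lower, limma adjusted p = 2.4e-07). In E11.5 versus E9.5 the difference was -0.47 ± 0.18 SE (adjusted p = 0.0269), and it was -0.76 (adjusted p = 8.64e-06) without the E9.5 samples 13 and 15. The smaller step lost its call when any 1 of the E9.5 samples 16, 19, 22 and 24 or the E11.5 samples 33 and 52 was left out, with adjusted p up to 0.0881. The other probe set of Fgf17 also fell in each comparison, by log2 differences of -1.33 ± 0.28 SE in E11.5 versus E9.5 (adjusted p = 4.0e-04), -0.86 ± 0.28 SE in E13.5 versus E11.5 (adjusted p = 0.0131) and -2.20 ± 0.25 SE in E13.5 versus E9.5 (adjusted p = 1.4e-07). On that probe set, the E9.5 samples 13 and 15 had 19 and 18 against 50 to 58 in the other E9.5 samples, and all 6 E13.5 arrays (7 to 9) were at or under the lower quartile.

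Fgf15, which acts in the neural tube and, in the adult mouse gut, as a hormone that restrains bile acid synthesis, has 1 probe set. Its intensities were 287 to 450 at E9.5 (median 394.5), 140, 144, 147 and 153 at E11.5, and 162 to 200 at E13.5 (median 175). Every E9.5 array lay above every later one, and every E13.5 array lay above every E11.5 one. Fgf15 averaged a log2 intensity of 7.19 ± 0.05 at E11.5 (SD, n = 4) and 8.55 ± 0.24 at E9.5 (n = 6), a fall of 2.56-fold (log2 difference -1.36 ± 0.11 SE, limma adjusted p = 1.6e-09). Samples 13 and 15, at 287 and 328, were the lowest of E9.5, and without both the log2 difference was -1.50. In bulk samples, fewer cells of a type and less RNA per cell cannot be told apart.

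Between E13.5 and E9.5 the log2 difference of Fgf15 was -1.07 ± 0.10 SE (limma adjusted p = 4.5e-09). In E13.5 versus E11.5 it was 0.29 ± 0.11 SE (limma adjusted p = 0.0284). This call was lost without the E11.5 sample 51 or 52 or the E13.5 sample B62E8K or B63E6K (adjusted p up to 0.0677), and with the prefix block (adjusted p = 0.128).

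Markers of the midbrain-hindbrain organizer also fell in E11.5 versus E9.5. Of 7 such genes, 6 were measured, and in E11.5 versus E9.5 none of the 6 was called higher and 6 were called lower, where 26.9% of all genes were called lower. For E13.5 versus E11.5, 3 of the 6 were called lower, beside 27% of all genes. Their summed intensity was 329 to 443 at E11.5 against 557 to 820 at E9.5, and it was 151 to 183 at E13.5. Most of this sum came from En2, a homeobox gene of the organizer region, with 81 to 102 at E13.5 and 241 to 351 at E11.5, whereas its relative En1 had 13 to 15 at E13.5 and 11 to 14 at E11.5. None of the 6 was at or under the lower quartile on every array. Fgf8, the main organizer ligand and 1 of these 6, had a log2 difference of -1.10 ± 0.18 SE in E11.5 versus E9.5 (limma adjusted p = 2.2e-05) and of -0.81 ± 0.18 SE in E13.5 versus E11.5 (adjusted p = 6.2e-04). In the E9.5 samples 13 and 15 Fgf8 had 27 and 26, against 35 to 54 in the other 4. Fgf8 had 13 to 21 at E11.5 and 7 to 11 at E13.5, where every array was under the lower quartile of 12. The part of these markers in the Fgf17 and Fgf15 values was not tested.

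Fgf13 is not secreted. It binds the cytoplasmic tails of voltage-gated sodium channels and microtubules in neurons. Its brightest probe set had intensities of 415 to 495 at E9.5 (median 437.5), 634, 662, 666 and 760 at E11.5, and 713 to 804 at E13.5 (median 785.5). All E11.5 and E13.5 arrays lay above all E9.5 arrays, while E11.5 and E13.5 overlapped. The log2 difference was 0.60 ± 0.08 SE in E11.5 versus E9.5 (limma adjusted p = 1.6e-06), and 0.80 ± 0.07 SE in E13.5 versus E9.5 (1.74-fold, adjusted p = 3.2e-09).

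The step in E13.5 versus E11.5 was 0.19 ± 0.08 SE (limma adjusted p = 0.0436), and it was not called with the prefix block (adjusted p = 0.155). It was also lost without the E11.5 sample 33, 36 or 52, or when any 1 E13.5 sample other than B62E7K was left out, with adjusted p up to 0.124. The dimmer probe set of Fgf13 differed in its course. It had intensities of 26 to 38 at E9.5, 19, 23, 25 and 32 at E11.5, and 42 to 62 at E13.5, with a log2 difference of -0.35 ± 0.14 SE in E11.5 versus E9.5 (adjusted p = 0.0371) and of 1.04 ± 0.14 SE in E13.5 versus E11.5 (adjusted p = 2.3e-06). In E13.5 versus E9.5 it was higher (0.69, adjusted p = 6.6e-05), as the brightest was, whereas in E11.5 versus E9.5 the probe sets had opposite directions.

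The neuronal markers Dcx, Tubb3, Stmn2, Map2, Elavl3, Elavl4, Gap43 and Snap25 all rose in E11.5 versus E9.5, with summed intensities of 5890 to 6496 at E11.5 against 657 to 1444 at E9.5, and of 10951 to 11723 at E13.5. Their part in the Fgf13 values was not tested. Samples 13 and 15 had the lowest neuronal sums of E9.5, 657 and 696 against 1025 to 1444. Fgf13 was 415 and 426 in them, against 416 to 495 in the other E9.5 samples. The value of 416 was in sample 16, whose neuronal sum was 1318. Of the 4 sodium channel genes listed as partners of Fgf13, 3 were called higher in E11.5 versus E9.5 (31% of all genes) and all 4 in E13.5 versus E11.5 (27.9%). Without the E9.5 samples 13 and 15 the first comparison had 2 higher and 1 lower. At E9.5, Scn1a had 10 to 15, Scn2a 12 to 17 and Scn3a 10 to 19, near the lower quartile of 12, while Scn8a had 39 to 66. Scn3a, a channel of embryonic neurons, had a log2 difference of 2.58 ± 0.17 SE in E11.5 versus E9.5 (limma adjusted p = 9.3e-11), although its other probe set differed by only -0.10.

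Among the receptors, Fgfr3, which in the brain is found in ventricular zone progenitors and in the skeleton restrains cartilage growth, had intensities of 234 to 331 at E9.5 (median 279.5), 477, 498, 517 and 540 at E11.5, and 326 to 365 at E13.5 (median 345). The E11.5 arrays lay above all others, and E13.5 overlapped E9.5. Fgfr3 averaged a log2 intensity of 8.99 ± 0.08 at E11.5 (SD, n = 4) and 8.11 ± 0.19 at E9.5 (n = 6), a rise of 1.83-fold (log2 difference 0.87 ± 0.09 SE, limma adjusted p = 8.0e-08).

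In E13.5 versus E11.5 the difference of Fgfr3 was -0.55 ± 0.09 SE (limma adjusted p = 3.0e-05). In E13.5 versus E9.5 it was 0.32 ± 0.08 SE (adjusted p = 0.00202), and 0.21 (adjusted p = 0.0161) without the E9.5 samples 13 and 15, which had the lowest Fgfr3 values of 234 and 244. The other probe set of Fgfr3 was also higher in E11.5 versus E9.5 (log2 difference 0.44 ± 0.14 SE, adjusted p = 0.0144) and lower in E13.5 versus E11.5 (-0.84 ± 0.14 SE, adjusted p = 5.0e-05). It was called lower in E13.5 versus E9.5 (-0.40 ± 0.13 SE, adjusted p = 0.0109), so no direction is given for Fgfr3 between those stages. Of 7 cartilage markers, all measured, the summed intensity was 1921 to 2208 at E11.5 and 1367 to 2048 at E9.5, and it was 5791 to 7071 at E13.5. Their part in the Fgfr3 values was not tested.

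Fgfr1, expressed in neural progenitors and in mesenchyme, had intensities of 250 to 413 at E9.5 (median 360.5), 399, 460, 473 and 474 at E11.5, and 399 to 492 at E13.5 (median 438.5). All stages overlapped. The log2 difference was 0.43 ± 0.12 SE in E11.5 versus E9.5 (limma adjusted p = 0.00502) and 0.38 ± 0.11 SE in E13.5 versus E9.5 (adjusted p = 0.00486). These values rest in part on the E9.5 samples 13 and 15, at 267 and 250, against 359 to 413 in the other 4. Without both they were 0.25 (adjusted p = 0.0199) and 0.20 (adjusted p = 0.0371). E13.5 and E11.5 differed by -0.050 (95% interval -0.31 to 0.21, adjusted p = 0.754).

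Fgfr2, which serves epithelia and mesenchyme through alternative splice forms as well as neural progenitors, had intensities of 565 to 681 at E9.5 (median 651), 575, 579, 667 and 693 at E11.5, and 676 to 751 at E13.5 (median 735). The stages overlapped. The log2 difference was 0.21 ± 0.08 SE in E13.5 versus E11.5 (limma adjusted p = 0.0312) and 0.21 ± 0.07 SE in E13.5 versus E9.5 (adjusted p = 0.0173). With the prefix block these calls were lost (adjusted p = 0.116 and 0.089), and the first was also lost without the E11.5 sample 51 or 52 or any 1 of the E13.5 samples B62E8K, B63E5K, B63E6K and B63E7K (adjusted p up to 0.102). E11.5 and E9.5 differed by -0.0055 (95% interval -0.17 to 0.16, adjusted p = 0.961).

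Several probe sets exist for each receptor, and they did not move alike. In the maker's naming, the suffix a marks probes that match several transcripts of 1 gene and the suffix s probes that can match transcripts of several genes. The brightest probe sets of Fgfr1 and Fgfr2 carry the suffix s, and each of the 3 receptors also has a probe set with the suffix a. Over all 21 probe sets of the 10 genes, 10 were called higher and 6 lower in E11.5 versus E9.5 (26% and 26.4% of 45037 probe sets), and 3 and 11 in E13.5 versus E11.5 (25% and 26.5%). In E13.5 versus E9.5, 7 were called higher and 10 lower (27.8% and 29.9%).

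The a-suffixed probe sets of the receptors were lower at E13.5 than at E11.5 for all 3 genes, and none of their arrays overlapped between these stages. Over all genes, the E13.5 arrays all lay below the E11.5 arrays for 20.7%, a share taken on brightest probe sets. No such share was taken over a-suffixed probe sets. That of Fgfr1 had 76 to 136 at E13.5 and 213, 215, 217 and 223 at E11.5 (log2 difference -1.04 ± 0.19 SE, limma adjusted p = 1.2e-04). That of Fgfr2 had 121 to 155 at E13.5 and 215, 241, 276 and 289 at E11.5 (-0.91 ± 0.17 SE, adjusted p = 1.3e-04). The brightest probe sets of Fgfr1 and Fgfr2 did not fall in this comparison, so the direction for these genes depends on the probe set read. The dimmest probe set of Fgfr2, at 17 to 26 at E13.5 and 24, 27, 28 and 37 at E11.5, was also lower (-0.45, adjusted p = 0.0246), and that of Fgfr1 was at 0.26 (adjusted p = 0.199). In E13.5 versus E9.5 the a-suffixed probe set of Fgfr1 was at -1.13 ± 0.17 SE (adjusted p = 8.8e-06), against 0.38 on the brightest and 0.66 ± 0.15 SE (adjusted p = 7.4e-04) on the dimmest. The log2 difference of 3′ over 5′ control probe sets averaged 0.039 ± 0.032 at E13.5 (SD, n = 6) and 0.14 ± 0.048 at E11.5 (n = 4) for Gapdh, and 0.47 ± 0.034 at E13.5 and 0.56 ± 0.051 at E11.5 for beta-actin. At E9.5 it was highest, at 0.18 ± 0.10 for Gapdh and 0.82 ± 0.16 for beta-actin (n = 6). Its part in these differences was not tested.

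**Figure D2:**
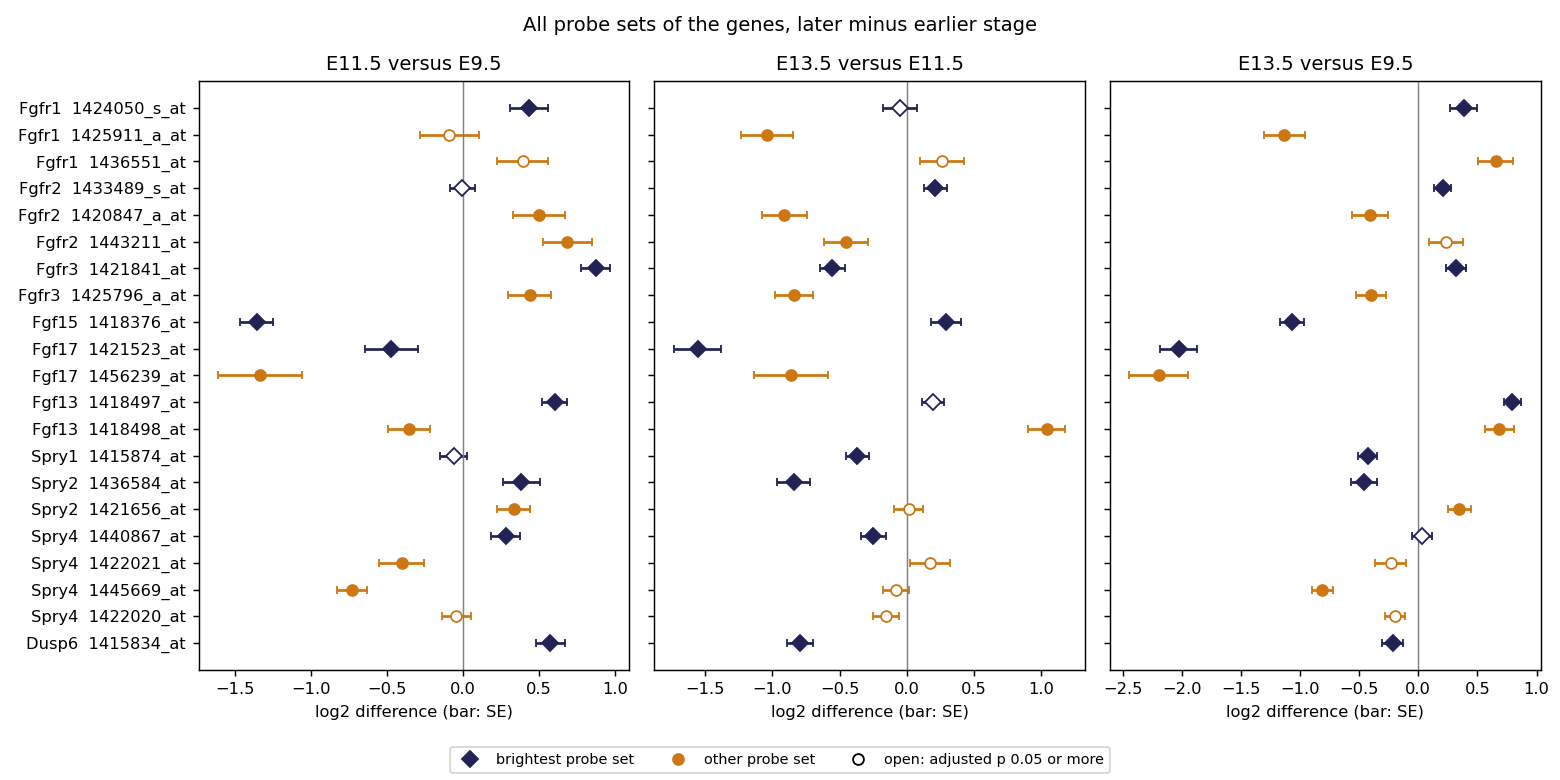
Log2 difference (x axis, later minus earlier stage, bars SE) of all 21 probe sets of the 10 genes, from the fit over all 45037 probe sets. Diamonds are the brightest probe set of a gene, circles the others, and open symbols have an adjusted p of 0.05 or more. The a-suffixed probe sets of Fgfr1, Fgfr2 and Fgfr3 all lie left of 0 in E13.5 versus E11.5, while the brightest probe sets of Fgfr1 and Fgfr2 lie at -0.050 and 0.21, and Fgf13's brightest probe set, called in the gene fit, has an adjusted p of 0.0544 in this one.

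Among the feedback inhibitors, Dusp6, a phosphatase that removes the activating phosphates from ERK, had intensities of 472 to 542 at E9.5 (median 498), 588, 789, 803 and 835 at E11.5, and 391 to 481 at E13.5 (median 429.5). The E11.5 arrays lay above all others, and E13.5 overlapped E9.5. Dusp6 averaged a log2 intensity of 9.54 ± 0.23 at E11.5 (SD, n = 4) and 8.97 ± 0.08 at E9.5 (n = 6), a rise of 1.49-fold (log2 difference 0.58 ± 0.09 SE, limma adjusted p = 2.5e-05). It fell by 1.73-fold in E13.5 versus E11.5 (-0.79 ± 0.09 SE, adjusted p = 4.7e-07).

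E13.5 versus E9.5 gave a small difference of Dusp6, of -0.22 ± 0.08 SE (limma adjusted p = 0.0302). That call was lost with the prefix block (adjusted p = 0.145), without the E9.5 samples 13 and 15 together (0.0511), and without the E9.5 sample 16 or 22 or the E13.5 sample B62E7K, B63E6K or B63E7K (up to 0.0743).

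Spry2, a Sprouty protein that restrains Ras activation downstream of the receptors, had intensities of 310 to 460 at E9.5 (median 363.5), 415, 438, 552 and 573 at E11.5, and 249 to 306 at E13.5 (median 272.5). E13.5 lay under both earlier stages, which overlapped each other. The log2 difference was 0.38 ± 0.12 SE in E11.5 versus E9.5 (limma adjusted p = 0.0105), -0.84 ± 0.12 SE in E13.5 versus E11.5 (adjusted p = 6.2e-06) and -0.46 ± 0.11 SE in E13.5 versus E9.5 (adjusted p = 0.00102). The E9.5 samples 13 and 15 had the highest Spry2 of the stage, at 460 and 454 against 310 to 394, and without both the first difference was 0.52 and the last -0.32. The dim other probe set, at 13 to 23 on all arrays, was higher in E11.5 versus E9.5 (0.33 ± 0.11 SE, adjusted p = 0.0159), at 0.013 in E13.5 versus E11.5 (adjusted p = 0.933) and higher in E13.5 versus E9.5 (0.35 ± 0.10 SE, adjusted p = 0.00508). For Spry2, the direction in E13.5 versus E9.5 thus depends on the probe set read.

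Spry1, another Sprouty family inhibitor, has 1 probe set, with intensities of 299 to 379 at E9.5 (median 334), 282, 317, 339 and 349 at E11.5, and 225 to 278 at E13.5 (median 250.5). All E13.5 arrays lay under all earlier ones. The log2 difference was -0.37 ± 0.09 SE in E13.5 versus E11.5 (limma adjusted p = 0.00117) and -0.43 ± 0.08 SE in E13.5 versus E9.5 (adjusted p = 6.2e-05). E11.5 and E9.5 differed by -0.059 (95% interval -0.24 to 0.12, adjusted p = 0.579).

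Spry4, the third Sprouty gene, was dim on all 4 of its probe sets. The brightest had 19 to 26 at E9.5 (median 23.5), 26, 27, 29 and 29 at E11.5, and 22 to 25 at E13.5 (median 23), steps of a few units on values rounded to whole numbers. Its log2 difference was 0.28 ± 0.09 SE in E11.5 versus E9.5 (limma adjusted p = 0.0135) and -0.25 ± 0.09 SE in E13.5 versus E11.5 (adjusted p = 0.0274). The first was 0.17 (adjusted p = 0.0708) without the E9.5 samples 13 and 15, at 19 and 20. The second lost its call with the prefix block (adjusted p = 0.105) and without the E11.5 sample 33 or 36 or the E13.5 sample B62E7K (up to 0.0695). Another probe set fell in E11.5 versus E9.5 (-0.73 ± 0.10 SE, adjusted p = 2.7e-06), with 8 to 10 at E11.5 and 13 to 17 at E9.5, so no direction is given for Spry4. Of the other 2 probe sets, 1 was lower in E11.5 versus E9.5 (-0.40, adjusted p = 0.0277), and the dimmest, at 9 to 13 on all arrays, was not called in any comparison.

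Neural progenitor markers, of which all 9 were measured, had summed intensities of 11611 to 12497 at E11.5 and 6317 to 8221 at E9.5, and of 11876 to 12401 at E13.5. Of these markers, 6 were called higher and 2 lower in E11.5 versus E9.5, beside 31% and 26.9% of all genes. In E13.5 versus E11.5, where Dusp6 and the brightest probe set of Spry2 fell, 4 were called higher and 5 lower, beside 27.9% and 27%. Their part in the inhibitors' levels was not tested.

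**Figure D3:**
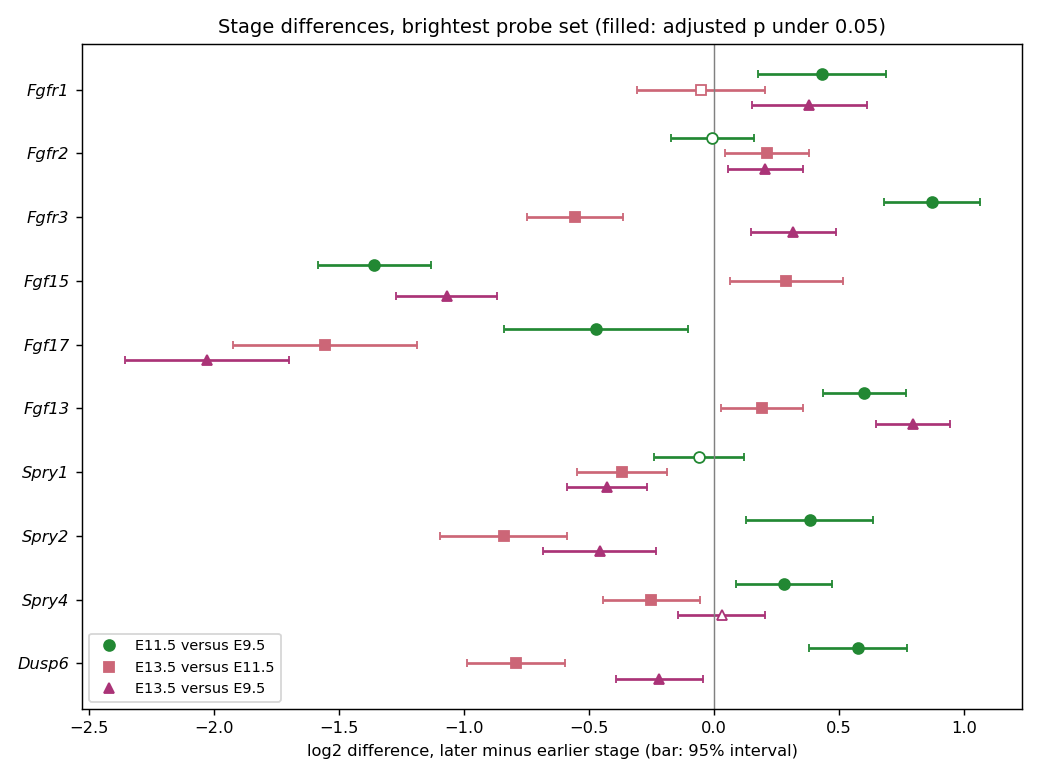
Log2 difference (x axis, later minus earlier stage) of the brightest probe set of each gene with its 95% interval, in 3 comparisons that share arrays. Filled symbols have an adjusted p under 0.05. Dusp6, Spry2 and Fgfr3 lie right of 0 in E11.5 versus E9.5 and left of 0 in E13.5 versus E11.5, and Fgf17 lies left of 0 in all 3.

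The sequences around the start sites of Spry1, Spry2 and Dusp6 are shown because these inhibitors are the readouts of the pathway whose stage values are given above. Transcription factors of the ETS family, among them Etv4 and Etv5, carry ERK signals to such genes. A promoter was found for 6 of the 10 genes in the RefSeq-based table (build GRCm38.p6), each from 250 bases before to 50 bases after a start site. Capitals mark matches on either strand to 2 ETS-type motifs, AGGAAG and CCGGAA, and each window holds at most 1 match. Of 32851 promoters of the same length, 35.4% hold AGGAAG and 14.9% hold CCGGAA. Dusp6 lies at chr10:99262981-99263280 on the plus strand and holds 1 match, Spry2 at chr14:105896770-105897069 on the minus strand and holds 1 match, and Spry1 at chr3:37639697-37639996 on the plus strand and holds 0 matches.
Dusp6: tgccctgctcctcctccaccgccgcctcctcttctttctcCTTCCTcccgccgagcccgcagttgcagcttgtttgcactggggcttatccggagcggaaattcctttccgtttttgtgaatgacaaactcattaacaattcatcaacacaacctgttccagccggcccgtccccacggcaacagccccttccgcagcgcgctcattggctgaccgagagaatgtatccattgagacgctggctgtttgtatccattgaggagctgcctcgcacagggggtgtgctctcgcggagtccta
Spry2: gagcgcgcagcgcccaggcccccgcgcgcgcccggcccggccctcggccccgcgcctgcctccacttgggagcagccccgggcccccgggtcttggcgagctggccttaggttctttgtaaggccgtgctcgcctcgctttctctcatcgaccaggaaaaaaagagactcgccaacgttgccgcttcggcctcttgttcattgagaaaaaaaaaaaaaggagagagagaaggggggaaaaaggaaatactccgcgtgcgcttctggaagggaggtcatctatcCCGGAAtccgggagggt
Spry1: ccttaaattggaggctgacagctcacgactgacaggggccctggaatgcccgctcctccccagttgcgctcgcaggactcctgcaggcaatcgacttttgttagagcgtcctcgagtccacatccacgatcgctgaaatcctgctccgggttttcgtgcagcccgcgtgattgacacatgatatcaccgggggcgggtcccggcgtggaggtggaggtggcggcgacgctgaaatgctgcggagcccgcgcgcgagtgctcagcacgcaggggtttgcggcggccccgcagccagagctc
A match of this length is a description of the letters in the window, at a share seen in many promoters, and bears on no binding.

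The other genes of the pathway were counted by role, beside the shares of all genes called higher and lower, which were 31% and 26.9% in E11.5 versus E9.5 (median log2 difference 0.019), 27.9% and 27% in E13.5 versus E11.5 (median 7.7e-05), and 32.7% and 29.1% in E13.5 versus E9.5 (median 0.0068). With lists this short, no list is set apart from these shares. Of 5 measured target transcription factors, 3 were called higher and 2 lower in E11.5 versus E9.5 (median log2 difference 0.54), 3 and 0 in E13.5 versus E11.5 (median 0.53), and 3 and 2 in E13.5 versus E9.5 (median 0.30). The ETS factor genes Etv4 and Etv5, commonly used as FGF readouts beside Dusp6, went opposite ways in E11.5 versus E9.5 on their brightest probe sets. They were at 0.54 ± 0.13 SE (limma adjusted p = 0.00155) and -0.56 ± 0.13 SE (adjusted p = 9.0e-04). The other probe set of Etv4 was at 0.17, and those of Etv5 were at -0.47 and -0.10. Etv5 had 118 and 126 in the E9.5 samples 13 and 15, against 179 to 196 in the other E9.5 samples, and 97, 104, 115 and 127 at E11.5. Without these samples the difference of Etv5 was -0.77 (adjusted p = 2.7e-07) and that of Etv4 was 0.60 (adjusted p = 0.00164), a setting chosen after seeing the data.

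Of 12 other feedback inhibitors, 5 were called higher and 5 lower in E11.5 versus E9.5 (median 0.0025), 2 and 4 in E13.5 versus E11.5 (median -0.080), and 4 and 7 in E13.5 versus E9.5 (median -0.24). Dusp9, an ERK phosphatase related to Dusp6, fell in E13.5 versus E9.5 (log2 difference -3.70 ± 0.14 SE, limma adjusted p = 7.1e-15), with its other probe sets at -1.32 and -3.74. Dusp4, a nuclear phosphatase of the same family, rose by 3.97-fold (1.99 ± 0.14 SE, adjusted p = 1.1e-10). Il17rd, a membrane inhibitor of FGF signalling also called Sef, fell (-1.26 ± 0.08 SE, adjusted p = 1.4e-11), with its other probe set at -0.61 ± 0.13 SE (adjusted p = 3.6e-04). Phosphatases that act on the same kinases thus moved in opposite directions in E13.5 versus E9.5, where kit and stage cannot be told apart. In E11.5 versus E9.5, stages labelled with 1 kit, Dusp9 was at -2.82 (limma adjusted p = 1.3e-11) and Dusp4 at 0.93 (adjusted p = 4.0e-05). The brightest probe set of Dusp9 had 13 to 14 at E13.5, close to the lower quartile of 12.

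Among 19 other FGF genes, all measured, 4 were called higher and 6 lower in E11.5 versus E9.5 (median -0.099). The counts were 7 and 3 in E13.5 versus E11.5 (median 0.20), and 5 and 4 in E13.5 versus E9.5 (median 0.0057). This list holds ligands together with Fgf11, Fgf12 and Fgf14, which like Fgf13 are not secreted. Fgf11 (1.17 and 1.31) and Fgf12 (0.69 and 0.70) were called higher in E13.5 versus E11.5 and versus E9.5. Fgf14 (-0.47) was called lower in E11.5 versus E9.5. Fgf18, a ligand of the organizer and of developing bone, was at -1.30 ± 0.17 SE in E11.5 versus E9.5 (limma adjusted p = 1.4e-06) and at 1.30 ± 0.17 SE in E13.5 versus E11.5 (adjusted p = 1.4e-06). Fgf7, a mesenchymal ligand that acts on epithelia, rose by 1.99-fold in E13.5 versus E11.5 (0.99 ± 0.10 SE, adjusted p = 4.5e-08). Connective tissue and facial mesenchyme markers, all 8 measured, had summed intensities of 23067 to 25605 at E13.5 against 7721 to 8307 at E11.5 (3400 to 4521 at E9.5). Their part in the levels of Fgf7, Fgf18 and Fgfr1 was not tested.

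Of 14 other receptors, co-receptors and heparan sulfate enzymes, 13 were measured, with 5 called higher and 4 lower in E11.5 versus E9.5 (median 0.24). The counts were 5 and 0 in E13.5 versus E11.5 (median -0.010), and 6 and 3 in E13.5 versus E9.5 (median 0.19). The enzyme genes Hs6st1, Hs6st2 and Ext1 were called lower in E11.5 versus E9.5 (-0.90, -0.71 and -0.64). They were called higher in E13.5 versus E11.5 (1.01, 0.41 and 0.42). Without the E9.5 samples 13 and 15 the first count was 8 higher and 4 lower. Gpc4, a heparan sulfate proteoglycan, rose by 2.57-fold in E11.5 versus E9.5 on its brightest probe set (1.36 ± 0.07 SE, limma adjusted p = 6.1e-12), while its other probe set was at -0.02. Fgfrl1, a receptor-like protein without a kinase domain, rose by 2.35-fold (1.23 ± 0.10 SE, adjusted p = 2.9e-09), with its other probe set at 0.47 ± 0.12 SE (adjusted p = 0.00226). Its probe sets stood at 1.03 and -0.17 in E13.5 versus E9.5. Of 19 signal relay genes, 13 were measured, and 7 were called higher and 0 lower in E11.5 versus E9.5 (median 0.27), 3 and 5 in E13.5 versus E11.5 (median -0.025), and 6 and 2 in E13.5 versus E9.5 (median 0.17). Without the E9.5 samples 13 and 15, the first count of relay genes was 7 higher and 1 lower. Araf, a kinase of the Raf family, rose in E11.5 versus E9.5 on its brightest probe set (1.09 ± 0.09 SE, adjusted p = 5.0e-09), with its 4 other probe sets between -0.56 and 0.78.

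**Figure D4:**
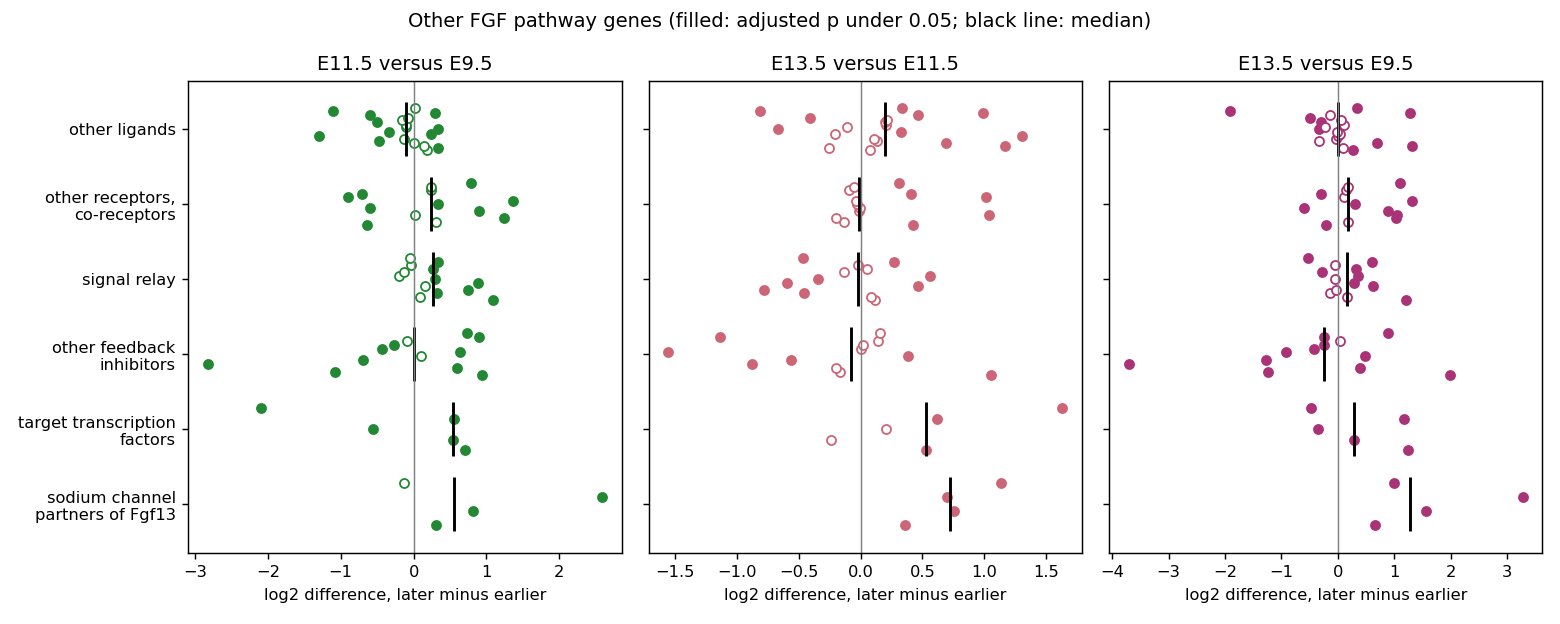
Log2 difference (x axis, later minus earlier stage) of the other FGF pathway genes by role, 1 point a gene on its brightest probe set, filled where the adjusted p is under 0.05, with the median of each list as a black line. The 4 sodium channel genes lie right of 0 in E13.5 versus E11.5, and the other feedback inhibitors spread from -3.70 to 1.99 in E13.5 versus E9.5. The ligand list includes the intracellular Fgf11, Fgf12 and Fgf14, and the receptor list the heparan sulfate enzymes Hs6st1, Hs6st2 and Ext1.

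Fgf15 and Fgf17 were the genes of the 10 whose stage means spanned at least 1 log2 unit. The genes with the most similar course were sought by the root mean square difference of log2 levels over the 16 arrays, after each gene's mean was taken off. For Fgf15 these were Ncl (0.14), Polr1b (0.14) and Krr1 (0.16), where the median over all compared genes was 0.68. For Fgf17 they were Mcm3 (0.19), Tmem47 (0.26) and Psme3 (0.27), where the median was 0.995.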

How the data were processed

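Total RNA of mouse embryo heads was measured on 16 1-colour arrays. The deposited values are probe set intensities on a linear scale, which the submitters' processing notes credit to RMA, and all are whole numbers. No source used here gives the version of RMA. The units are thus intensities as deposited by the authors. The log2 of each value was taken. Besides 64 controls, the table held 34945 probe sets that name 1 gene in the platform annotation (932 several, 9160 none in the table used here), and the brightest by mean over 16 arrays stood for each of 18193 genes. Symbols were checked in RefSeq's table of GRCm38.p6 (0 changed, 204 not matched).

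Differences were fitted with limma 3.58.1 in R 4.3.3 on all 16 arrays with a mean per stage, with Benjamini-Hochberg adjustment over all 18193 genes within a comparison, and an adjusted p under 0.05 counted as a call. Other probe sets took their values from the same model over all 45037 non-control probe sets. The fit was also run on simulated data with independent arrays and few changed genes. Such data cannot show whether the p-values hold for these arrays, where most genes were called. Errors are SE for differences and SD for levels. Arrays give no depth, so their number limits the precision, and p-values treat the arrays of a stage as independent. Alternatives were another normalization, centring, probe set rule, filter, pseudocount, variance model, array weights, a random block for the E13.5 title prefix (B62 or B63), and leaving out samples.

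The members, lists, tests and alternatives were chosen with earlier results of these data known. Named genes were to be the members and, per list and comparison, up to 3 called genes with the largest rise and fall. The text gives a part of the latter, chosen after their values were seen, as were Etv4 and Etv5. The likeness search took the 3 nearest genes with a mean above the lower quartile. Lists were counted, not tested. In all, 3 pairs of stages were compared.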

Additional observations from a re-analysis of the deposited data

Results flagged for a closer look

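Of 30 groups of arrays (10 genes at 3 stages), 2 held a sample far from the others of its stage, where chance alone gives about 1 in 20 groups. For Dusp6 at E11.5, sample 51 had an intensity of 588, and the next lowest was 789 (a gap of 0.838 of the stage's range on the log2 scale). Without that sample the rise in E11.5 versus E9.5 was 0.69 and the fall in E13.5 versus E11.5 was -0.91 on the log2 scale. For Fgf13 at E13.5, sample B62E7K had 713, and the next lowest was 771 (a gap of 0.651 of the range).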

How the results depend on the processing

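Beside the results that changed as given above, calls and directions depended most on which probe set stood for a gene. Among single-gene differences, 439 of 480 kept their direction and side of the threshold when 1 array was left out, and 281 of 321 did under the other settings. Part of these outcomes was fixed in advance. Leaving out an array of the stage not compared cannot change a log2 difference, nor can median centring, as all array medians were equal. The mean of all probe sets cannot change it for the 3 genes with 1 probe set. The counts therefore overstate how far the differences were tried. The number of genes called higher in E11.5 versus E9.5 was 3 with the second-brightest probe set, which 7 of the 10 genes have. In E13.5 versus E11.5 it was 1 with that probe set, 0 with the random block for the title prefix, and 0 to 3 when 1 array was left out. In E13.5 versus E9.5 it was 1 with the mean of all probe sets and 2 with the second-brightest. The number called lower in E11.5 versus E9.5 was 1 with only the stages compared in the fit (Fgf17, adjusted p = 0.0647), and 1 to 2 when 1 array was left out.

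With the second-brightest probe set, log2 differences changed sign in E11.5 versus E9.5 for Fgf13 (-0.35), Fgfr1 (-0.090), Fgfr2 (0.50) and Spry4 (-0.40), in E13.5 versus E11.5 for Fgfr2 (-0.91), Spry2 (0.013) and Spry4 (0.17), and in E13.5 versus E9.5 for Fgfr1 (-1.13), Fgfr2 (-0.41), Fgfr3 (-0.40), Spry2 (0.35) and Spry4 (-0.23). With the mean of all probe sets they changed sign in E11.5 versus E9.5 for Fgfr2 (0.39) and Spry4 (-0.22), in E13.5 versus E11.5 for Fgfr2 (-0.38), and in E13.5 versus E9.5 for Fgfr1 (-0.032), Fgfr3 (-0.042) and Spry4 (-0.30). Differences that were not called and lay near 0 also changed sign. Array weights gave 0.018 for Fgfr2 in E11.5 versus E9.5 and -0.026 for Spry4 in E13.5 versus E9.5, and the fit lacking 13 and 15 of E9.5 gave 0.041 and -0.083. With 1 array left out, Fgfr2 in E11.5 versus E9.5 lay between -0.054 and 0.036, Spry1 in E11.5 versus E9.5 between -0.10 and 0.0024, and Spry4 in E13.5 versus E9.5 between -0.022 and 0.068. The cause was not tested. With a pseudocount of 16, Fgf17 was at -0.97 in E13.5 versus E11.5 and at -1.34 in E13.5 versus E9.5. Fgf13 in E13.5 versus E11.5 lost its call after another quantile normalization (adjusted p = 0.056), as did Spry4 with trended and robust variance (0.0577) and, in E11.5 versus E9.5, with array weights (0.0702).

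No paired analysis was possible because the heads of each stage come from different embryos. The number of arrays limits precision, the labelling kit changes with E13.5, and poly-A spike-in levels also differ between E9.5 and E11.5. Values near the lower quartile of 12 can understate folds, and heads hold several tissues.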

Other observations

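Surface ectoderm markers, all 8 measured, had summed intensities of 1347 to 1463 at E13.5 and 551 to 636 at E11.5, and of 920 to 1573 at E9.5. None was at or under the lower quartile on every array. The sum was 1573 and 1552 in the E9.5 samples 13 and 15, above the other E9.5 samples (920 to 1245), and in the same 2 samples Spry2 was highest and Fgf15, Fgf17, Fgfr1, Fgfr3 and Spry4 were lowest of the stage. The sum of the organizer markers in these samples was 557 and 660, against 644 to 820 in the others, and Wnt1, a signal of the midbrain side of the organizer, had 50 and 72 against 36 to 47.

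At E13.5, the arrays with the title prefixes B62 and B63 overlapped for all 10 genes on the brightest probe set.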
